A study of Homo sapiens with 6 samples.

Results

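The 10 genes described here encode the core of cytosolic fatty acid synthesis and of fatty acyl chain elongation and desaturation, together with the factor that regulates them. They were taken by symbol from a table of 21631 genes measured in A-375, an established human melanoma cell line. All 10 had counts in every library, and all 10 were among the 16910 genes with enough reads to be tested. RNA sequencing was done on 6 libraries. A control guide was carried by 3 of them, and a guide against SEPHS2, which makes the selenium donor for selenocysteine, by the other 3, described by the submitters as SEPHS2 knockout. No drug, dose or time is given for either group. The labels do not say whether the knockout cells were a pool or 1 clone, nor whether libraries of a group came from separate cultures. A difference between founding cells therefore cannot be told apart from SEPHS2 loss, and the p-values below cover just the scatter among these 6 samples, part of which may be technical.

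In the cytosol, ACLY splits citrate into acetyl-CoA and oxaloacetate, ACACA carboxylates acetyl-CoA to malonyl-CoA, and FASN joins these units into palmitate. ELOVL6 lengthens palmitate, SCD desaturates stearate and palmitate to oleate and palmitoleate, and FADS2, ELOVL5 and FADS1 act in turn on the dietary polyunsaturated fatty acids to give arachidonate and eicosapentaenoate. SREBF1 encodes SREBP-1, a membrane-bound transcription factor that is cleaved to enter the nucleus and activates most of these genes. Many tumours, melanoma among them, make fatty acids themselves, and the balance of monounsaturated to polyunsaturated chains in membranes sets how readily they are oxidised.

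The libraries held 34606145 to 43405579 counted reads, and the 10 genes took 0.237% to 0.255% of them in the control group and 0.267% to 0.282% in the group labelled knockout. SEPHS2 was counted 6671, 6277 and 6269 times in control and 5802, 7643 and 6978 times in labelled knockout. Its mRNA was not lower in the latter, with 156 ± 3.32 CPM (reads of the gene relative to a TMM-scaled library size; mean ± SD, n = 3) in control and 173 ± 3.85 CPM in the other group (log2 change 0.15, adjusted p = 0.00286 by edgeR, and 0.0931 with a length and GC trend across genes removed). Gene-level counts do not show a changed reading frame, so every direction below rests on the labels. Of 15 melanoma and melanocyte markers, 11 reached 1 CPM, led by SOX10. The sum of the 15 was 1620 to 1705 CPM in control and 1510 to 1538 CPM in labelled knockout, without overlap. The markers moved in both directions. Of the 12 tested, 3 were higher and 4 lower at an adjusted p under 0.05 by edgeR. That is 58.3%, against 45.6% of all tested genes, and the median log2 change was -0.01. CSPG4 went from 465 to 506 CPM in control to 310 to 313 CPM in labelled knockout, and AXL from 117 to 119 to 156 to 163 CPM. The pigment enzymes were near 0, with 0 and 10 reads over the 2 groups for TYR, 28 and 10 for TYRP1 and 13 and 2 for DCT. Summed markers of other cell types ranged from 3.87 to 4.96 CPM in control and 2.58 to 3.41 in labelled knockout for adipocytes (4 of 6 measured, LIPE highest), and from 5.61 to 6.78 and 4.60 to 5.53 for hepatocytes (5 of 6, SERPINA1 highest). They ranged from 3.42 to 4.38 and 6.52 to 7.21 CPM for immune cells (4 of 6, LYZ highest), from 34.4 to 35.5 and 42.5 to 45.5 for keratinocytes (3 of 6, KRT10 highest), and from 19.8 to 23.1 and 19.9 to 23.7 for fibroblasts (5 of 6, PDGFRA highest). PTPRC, a marker of immune cells, reached at most 0.301 CPM in any library, and ALB, a marker of hepatocytes, at most 0.145 CPM. The part of these markers in the results was not tested.

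Desaturase mRNAs were higher in the libraries labelled SEPHS2 knockout, while mRNAs of the enzymes that build palmitate were not. SCD, FADS1, FADS2 and FADS3 rose by 1.23-fold to 1.52-fold, and the elongases ELOVL5 and ELOVL6 rose by 1.11-fold and 1.10-fold. ACACA fell, and ACLY, FASN and SREBF1 did not pass the test. Once a trend with transcript length and GC content was removed, ACACA (-0.05) and ELOVL5 (0.06) lost their calls, and FASN (0.16) and SREBF1 (0.26) passed as higher. In all, 7 of the 10 genes passed at an adjusted p under 0.05 (edgeR quasi-likelihood test, Benjamini-Hochberg over all genes tested), against a background of 45.6% of tested genes. That background was not matched for level, and it was 51.3% among genes with at least 1 CPM in 3 libraries. Of the 10, 6 were higher, where 22.2% of all tested genes were, and 1 was lower, where 23.4% were. The 2 groups did not overlap for 6 of the 10, against 52.1% of all tested genes. A rise of at least 1.2-fold was called for 4 of the 10, against 12.8% of all genes, while ACACA, lower by 1.13-fold, did not reach a fall of that size, which was called for 16.4% of all genes. The median log2 fold change (labelled knockout over control) was 0.14 for the 10 genes and 0.01 for all tested genes. In bulk RNA, fewer cells expressing a gene and less RNA per cell cannot be told apart.

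**Figure D1:**
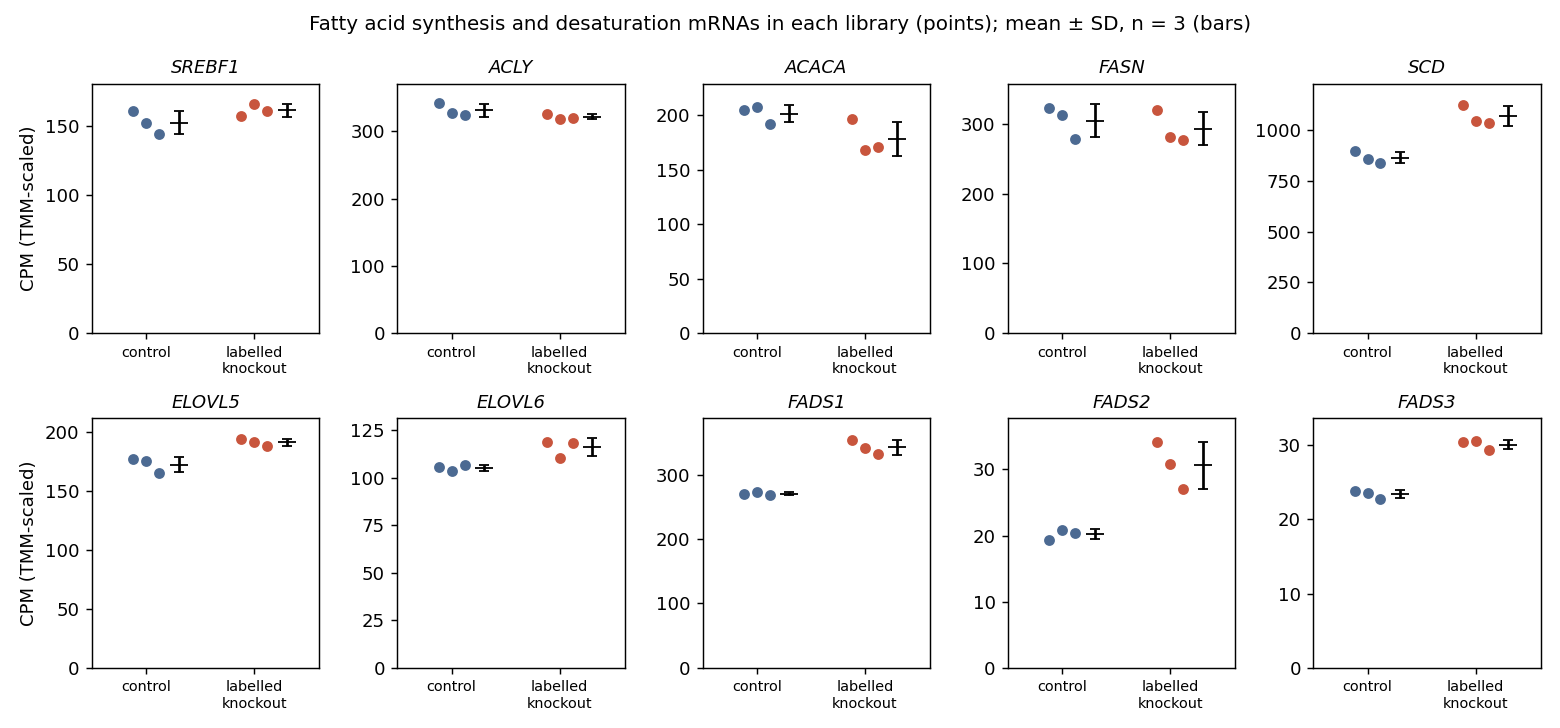
Level of each of the 10 mRNAs in CPM (vertical axes, each from 0) in the 3 control libraries (blue) and the 3 libraries labelled SEPHS2 knockout (red), with mean ± SD as black bars. The groups are separate for SCD, ELOVL5, ELOVL6, FADS1, FADS2 and FADS3, and they overlap for SREBF1, ACLY, ACACA and FASN.

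SREBF1, the regulator, stood at 161, 152 and 144 CPM in the control libraries and at 157, 166 and 161 CPM in those labelled knockout. The groups overlapped, and the log2 fold change was 0.09 (SE 0.04, adjusted p = 0.122 by edgeR). The gene lies at chr17:17811334-17836986 (GRCh38.p14, protein-coding). Its mRNA makes the precursor, so its level says nothing of how much is cleaved. MIR33B, a microRNA gene inside SREBF1, had 17 reads over the control group and 20 over the other, too few to test.

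ACLY (chr17:41866917-41930545), which supplies acetyl-CoA, had 342, 327 and 325 CPM in control and 326, 319 and 319.9 CPM in labelled knockout. The groups overlapped by 1 library, and the log2 fold change was -0.04 (SE 0.04, adjusted p = 0.401 by edgeR). ACACA (chr17:37084992-37406836), which makes malonyl-CoA, the committed step of the pathway, had 204, 208 and 192 CPM in control and 196, 168 and 171 CPM in labelled knockout. Knockout replicate 1 lay among the control libraries and the other two below them. Its log2 change was -0.18 (SE 0.05, adjusted p = 0.00587 by edgeR), and that call did not hold without knockout replicate 2 (-0.13, adjusted p = 0.0555). FASN (chr17:82078338-82098236), the synthase itself, had 324, 314 and 279 CPM in control and 321, 282 and 278 CPM in labelled knockout. The 2 groups covered nearly the same range, and the log2 change was -0.06 (SE 0.06, adjusted p = 0.451 by edgeR).

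SCD was the most abundant of the 10 mRNAs and rose. It had 895, 858 and 839.5 CPM in the control libraries and 1123, 1045 and 1032 CPM in those labelled knockout. Every library labelled knockout lay above every control library, and the log2 fold change was 0.30 (SE 0.04, adjusted p = 4.34e-06 by edgeR). SCD lies at chr10:100347233-100364826. Within a library, the log2 ratio of SCD to FASN reads was 1.47, 1.45 and 1.59 in control and 1.81, 1.89 and 1.89 in labelled knockout. The desaturase thus gained 0.36 on the log2 scale relative to the synthase, with no overlap between the groups. With the length and GC trend removed from each library the gain was 0.13, with the groups still apart.

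The elongases rose by smaller amounts. ELOVL5 (chr6:53267404-53348950), which lengthens polyunsaturated chains, had 177, 175 and 165 CPM in control and 194, 192 and 188 CPM in labelled knockout. Its log2 fold change was 0.15 (SE 0.04, adjusted p = 0.00386 by edgeR), and the call was lost without control replicate 3 (0.12, adjusted p = 0.054). ELOVL6 (chr4:110045846-110199202), which acts on saturated and monounsaturated chains, had 106, 104 and 107 CPM in control and 119, 111 and 118 CPM in labelled knockout. Its log2 fold change was 0.14 (SE 0.04, adjusted p = 0.00896 by edgeR). The groups did not overlap for either gene, and the log2 ratio of ELOVL6 to ELOVL5 was -0.71 ± 0.0709 in control and -0.72 ± 0.0650 in labelled knockout (SD, n = 3). The difference in this ratio was -0.01, and 0.08 with that trend removed, with overlapping groups in both.

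The FADS genes lie side by side on chromosome 11, and each rose. FADS2 (chr11:61816203-61867354), the desaturase that opens the polyunsaturated route and can also act on palmitate, had 19.4, 20.9 and 20.3 CPM in control and 34.1, 30.8 and 27.0 CPM in labelled knockout. This was the largest change of the 10, at 0.60 on the log2 scale (SE 0.07, adjusted p = 2.89e-07 by edgeR). Knockout replicates 1 and 3 differed by more than the whole control range, and the lowest of the 3 still lay above every control library. FADS1 (chr11:61799627-61817003), which completes arachidonate and eicosapentaenoate, had 269.7, 273 and 268 CPM in control and 354, 341 and 332 CPM in labelled knockout (log2 change 0.34 with SE 0.04, adjusted p = 1.28e-07 by edgeR). The control libraries were nearly level for FADS1, and the groups were clearly apart. FADS3 (chr11:61873526-61892224), a relative that acts on sphingoid bases, had 23.8, 23.6 and 22.8 CPM in control and 30.4, 30.5 and 29.3 CPM in labelled knockout (log2 change 0.36 with SE 0.06, adjusted p = 1.21e-05 by edgeR).

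FADS2 gained on FADS1 within every library labelled knockout, with log2 ratios of -3.80, -3.71 and -3.72 in control and -3.38, -3.47 and -3.62 in the other group. The ratio of FADS1 to FADS3 was 3.53 ± 0.0275 in control and 3.51 ± 0.0322 in labelled knockout on the log2 scale (SD, n = 3). FADS1 and FADS2 are transcribed away from each other from overlapping 5′ ends that share 801 bases in RefSeq, and the strand setting of the counting is not given in the sources used here, so reads from that stretch are uncertain. The surrounding genes did not share this rise in their median. The 40 nearest tested genes had a median log2 fold change of -0.04 around FADS1, 0.00 around FADS2 and -0.01 around FADS3. For SCD the 40 neighbours had a median of 0.01. Around ELOVL5 and ELOVL6 the medians were 0.09 and 0.06, of the same sign as these genes' own changes of 0.15 and 0.14. Around ACACA the neighbours had a median of 0.17, opposite in sign to ACACA itself.

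The promoters of the members called at least 1.2-fold higher, and of ACACA, the member called lower, are shown so that their starts can be compared. Each window runs from 250 bases before the RefSeq start to 50 from it, on GRCh38.p14, 5′ to 3′ on the gene's strand. Capitals mark matches, on either strand, to TCACNCCAC (the sterol element bound by SREBPs), CACGTG (an E-box), CCAAT (bound by NF-Y) and GGGCGG (a GC box bound by SP factors). Matches to different motifs, or to 1 motif in tandem, may share letters. The windows are chr10:100346983-100347282 on the plus strand, chr11:61816954-61817253 on the minus strand, chr11:61815953-61816252 on the plus strand, chr11:61891496-61891795 on the minus strand and chr17:37406787-37407086 on the minus strand.
SCD: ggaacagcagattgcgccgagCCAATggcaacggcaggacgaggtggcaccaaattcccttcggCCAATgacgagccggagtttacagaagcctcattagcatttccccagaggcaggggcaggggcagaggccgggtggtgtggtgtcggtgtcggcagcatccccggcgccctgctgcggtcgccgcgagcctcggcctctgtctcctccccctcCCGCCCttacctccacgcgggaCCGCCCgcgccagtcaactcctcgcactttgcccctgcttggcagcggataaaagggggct
FADS1: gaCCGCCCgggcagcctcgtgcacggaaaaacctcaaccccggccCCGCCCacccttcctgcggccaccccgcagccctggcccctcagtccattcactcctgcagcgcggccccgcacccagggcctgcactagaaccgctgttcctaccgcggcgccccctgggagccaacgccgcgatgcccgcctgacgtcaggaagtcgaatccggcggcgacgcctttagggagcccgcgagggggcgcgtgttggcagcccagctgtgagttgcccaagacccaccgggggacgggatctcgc
FADS2: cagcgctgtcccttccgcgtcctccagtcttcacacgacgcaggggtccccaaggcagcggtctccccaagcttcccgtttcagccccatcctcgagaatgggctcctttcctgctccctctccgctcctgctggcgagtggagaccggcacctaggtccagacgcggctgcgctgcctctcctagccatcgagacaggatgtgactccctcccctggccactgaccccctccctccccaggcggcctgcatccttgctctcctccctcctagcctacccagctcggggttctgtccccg
FADS3: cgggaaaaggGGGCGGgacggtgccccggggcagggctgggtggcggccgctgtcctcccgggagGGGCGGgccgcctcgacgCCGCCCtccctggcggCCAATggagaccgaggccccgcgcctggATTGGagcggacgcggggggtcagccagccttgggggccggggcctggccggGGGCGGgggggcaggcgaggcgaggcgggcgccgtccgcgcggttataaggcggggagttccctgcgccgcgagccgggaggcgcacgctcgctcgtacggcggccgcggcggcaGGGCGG
ACACA: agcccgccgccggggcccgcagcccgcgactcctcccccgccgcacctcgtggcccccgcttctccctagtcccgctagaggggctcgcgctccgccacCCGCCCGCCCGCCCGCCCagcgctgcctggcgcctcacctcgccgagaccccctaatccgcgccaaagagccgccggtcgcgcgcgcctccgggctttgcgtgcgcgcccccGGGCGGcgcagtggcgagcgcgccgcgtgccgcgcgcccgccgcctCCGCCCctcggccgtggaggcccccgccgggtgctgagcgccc

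Promoter windows were matched for 9 of the 10 genes, 13 windows in all. The promoter set used holds 3 starts for ACACA and 2 each for ACLY and FADS2, the windows of ACLY and of FADS2 overlapping. It does not hold every RefSeq start. For ACLY, FADS3 and ELOVL6 its starts lie inside the RefSeq gene, for ACLY at 41919022 and 41918951 against a 5′ end at 41930545. FASN was not matched. GC boxes were found in 10 of the 13 windows and CCAAT in 8, where 44.95% and 34.61% of all 35116 RefSeq promoter windows of that length hold them. An E-box was found in 1 window, that of ELOVL5 (7.26% of all windows), and the sterol element in 0 of the 13 (1.13% of all). SCD holds CCAAT at -229 and -186 and GC boxes at -33 and -11 from the start. FADS1 holds GC boxes at -248 and -205, the FADS2 window shown holds no match, and FADS3 has 5 GC boxes and 2 CCAAT. The ACACA window shown has 6 GC boxes and no CCAAT, but the second ACACA start holds CCAAT at -226 and the third at -155 and -136. The second FADS2 start holds a GC box at -154 and CCAAT at 6, so SCD, FADS1, FADS2, FADS3 and ELOVL6 each had a GC box in a window. ACLY, ACACA and SREBF1, none of them called higher before removal of the length and GC trend, each had a GC box too. ELOVL5, which rose, had none. A match is a stretch of letters and not a bound site, and a window without one says nothing of elements elsewhere.

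**Figure D2:**
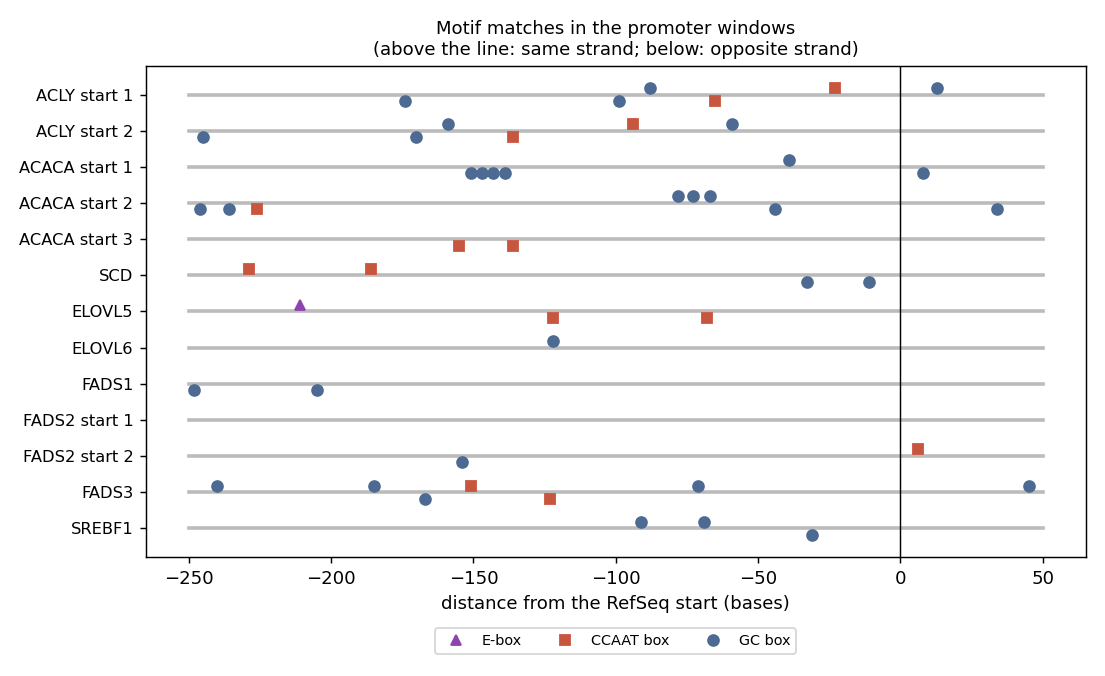
Motif matches (symbols) by distance in bases from the RefSeq start (horizontal axis) in the 13 promoter windows of 9 genes, drawn above the line for the gene's strand and below it for the opposite strand. GC boxes occur in 10 windows and CCAAT in 8, and the first FADS2 start has none.

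Levels of different genes were compared per kilobase of annotated exon (GENCODE release 29), as CPM per kb. In control the order was SCD (161 ± 5.28), ACLY (63.6 ± 1.82), ELOVL5 (45.2 ± 1.68), FASN (32.6 ± 2.51), FADS1 (26.4 ± 0.223), SREBF1 (18.98 ± 1.04), ACACA (15.5 ± 0.624), ELOVL6 (14.4 ± 0.219), FADS3 (3.72 ± 0.0864) and FADS2 (1.83 ± 0.0673; SD, n = 3). Neighbours in this order did not overlap in the control libraries. In labelled knockout, FADS1 (33.5 ± 1.11 CPM per kb) and FASN (31.4 ± 2.52) changed places with overlapping libraries, and ELOVL6 (15.9 ± 0.638) and ACACA (13.7 ± 1.209) changed places without overlap. SCD per kb was higher than 99.1% of tested genes with a length, and FADS2 higher than 34.7%. Annotated exons include those of rarely used transcripts, so these levels depend on the annotation.

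Across the whole table, genes of higher transcript GC content or greater exon length had lower changes. Over 10 bins of genes from the lowest GC content to the highest, the median log2 fold change went from 0.05 to -0.07, and from the shortest to the longest exons from 0.12 to -0.11. FASN, at 65.3% GC and 9364 bases, and SREBF1, at 63.5% and 8030 bases, lie at the high end of both. The trend fitted for a gene like FASN was 0.14, 0.12 and 0.07 (log2) in the control libraries and -0.10, -0.11 and -0.13 in those labelled knockout. With the trend removed, FASN turned to 0.16 (adjusted p = 0.00517 by edgeR) and SREBF1 reached 0.26 (adjusted p = 1.83e-06), so that both were called higher. ACACA (-0.05, adjusted p = 0.401) and ELOVL5 (0.06, adjusted p = 0.187) lost their calls. SCD (0.29), ELOVL6 (0.15), FADS1 (0.47), FADS2 (0.76) and FADS3 (0.45) kept theirs. The statement that palmitate-building mRNAs did not rise therefore holds without this adjustment, and for FASN not with it.

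**Figure D3:**
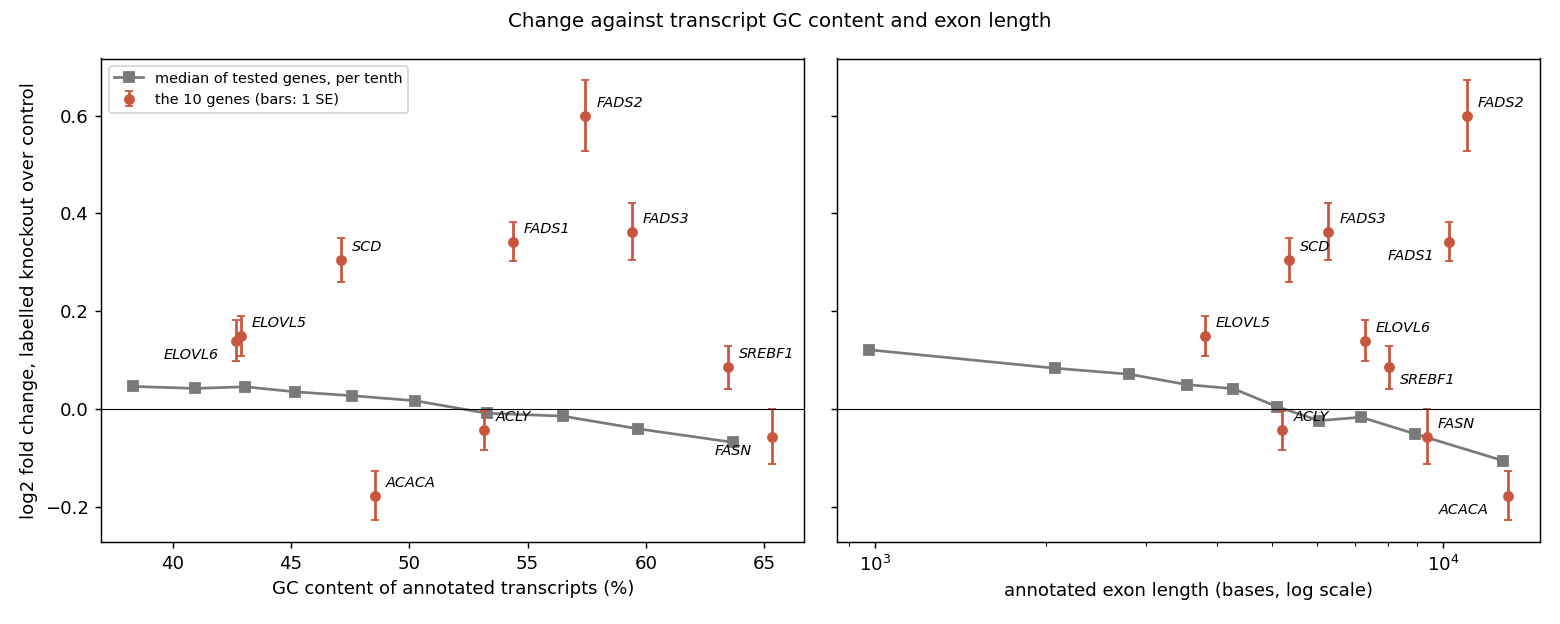
Log2 fold change (vertical axis, labelled knockout over control) against transcript GC content (left) and annotated exon length (right, log scale) for the 10 genes (red, bars of 1 SE) and the median of tested genes in each of 10 bins (grey). The grey medians are lower at the right of both panels than at the left, while SCD and the FADS genes lie above them.

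**Figure D4:**
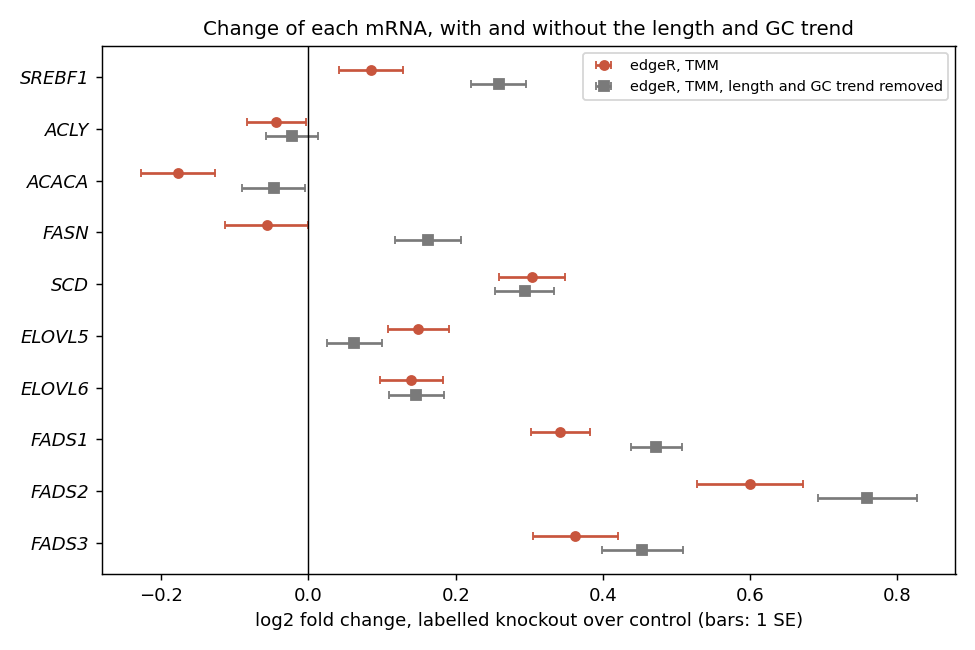
Log2 fold change of each of the 10 mRNAs with bars of 1 SE, from the edgeR fit with TMM (red circles) and from the same fit with the length and GC trend removed (grey squares). FASN and SREBF1 move to the right and ACACA toward 0, while SCD and ELOVL6 stay in place.

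Other genes of the same steps were read from lists of related functions. Of 10 other elongation genes tested, 8 rose and 2 did not pass (80% called, against 45.6% of all genes), with a median log2 fold change of 0.20. Over all tested genes, 22.2% were called higher. The count that rose was 6 with DESeq2, with the length and GC trend removed and at an adjusted p under 0.01. It was also 6 without control replicate 3 or knockout replicate 1, and 9 without knockout replicate 3. TECR and HACD3, which complete each elongation cycle, rose from 70.5 ± 0.851 to 84.0 ± 4.09 CPM and from 163 ± 4.93 to 188 ± 6.60 CPM (log2 changes 0.25 and 0.21, adjusted p by edgeR 6.12e-05 and 2.37e-04). ELOVL1, the elongase of very long saturated chains, rose by 0.20. ELOVL2, which lengthens polyunsaturated chains after ELOVL5, rose from 4.40 ± 0.776 to 6.61 ± 0.420 CPM (log2 change 0.58, adjusted p = 6.60e-04 by edgeR). ELOVL7 rose by 0.40 (adjusted p = 0.0217 by edgeR), which did not hold on leaving out control replicate 3 (0.28, adjusted p = 0.149), on leaving out knockout replicate 1 (0.30, at 0.107), with DESeq2 (adjusted p = 0.0565) and with the length and GC trend removed (0.31, adjusted p = 0.0707). A change of at least 1.2-fold was called for 2 of these 10 genes, both higher. Over all tested genes, 29.2% were called at that fold and 12.8% were called higher.

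Of 9 other genes of desaturation tested, 3 rose and 6 did not pass, a share of 33.3% against 45.6% of all genes. CYB5B, a cytochrome b5 that passes electrons, rose from 213 ± 6.38 to 285 ± 4.21 CPM (log2 change 0.42 with SE 0.04, adjusted p = 3.12e-09 by edgeR). DEGS1, the ceramide desaturase, rose by 0.19 (adjusted p = 4.33e-04 by edgeR), a call lost with the length and GC trend removed (0.07, adjusted p = 0.158). CYB5R4 rose by 0.22 (adjusted p = 0.00893 by edgeR), and no longer passed when control replicate 1 (0.0535) or knockout replicate 2 (0.052) was left out. SCD5, the other stearoyl-CoA desaturase, had 12.4 ± 0.300 and 13.8 ± 0.629 CPM (adjusted p = 0.127 by edgeR). Without control replicate 3, 1 gene of this list also fell.

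Among genes that supply precursors and NADPH, 6 of 11 rose and 2 fell (72.7% called, against 45.6% of all genes). ME1 and IDH1, which make NADPH, were among those that rose. ME1 (malic enzyme) rose from 56.4 ± 2.94 to 81.0 ± 2.82 CPM (log2 change 0.52, adjusted p = 2.09e-09 by edgeR). IDH1 (cytosolic isocitrate dehydrogenase) rose from 143 ± 2.25 to 204 ± 5.10 CPM, a log2 change of 0.51. SLC25A1, which exports citrate for ACLY, rose by 0.19 (adjusted p = 0.00193 by edgeR). ACSS2, which makes acetyl-CoA from acetate, fell from 60.8 ± 1.214 to 46.8 ± 2.91 CPM (log2 change -0.38, adjusted p = 1.29e-06 by edgeR). ACACB, the mitochondrial counterpart of ACACA, had 15.1 ± 1.502 and 14.9 ± 1.214 CPM (adjusted p = 0.879 by edgeR). With DESeq2, or on leaving out knockout replicate 2 or either of control replicates 1 and 3, 1 gene fell. Of 10 genes of mitochondrial fatty acid synthesis, 4 rose and 6 did not pass (40% called, near the share of all genes), and those that rose included LIAS (lipoate synthase, 0.40), NDUFAB1 (the acyl carrier protein, 0.28) and OXSM (0.30).

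Among genes that control SREBP, 8 of 21 tested fell and 2 rose (47.6% called, near the 45.6% of all genes), with a median log2 fold change of -0.07. SREBF2, which encodes the SREBP of cholesterol synthesis, fell from 159 ± 0.338 to 129.8 ± 2.84 CPM (log2 change -0.29 with SE 0.04, adjusted p = 1.46e-06 by edgeR). SCAP, the escort of SREBPs to the Golgi, fell from 78.0 ± 4.38 to 64.3 ± 3.53 CPM (log2 change -0.28, adjusted p = 6.90e-05 by edgeR). INSIG1, which retains SCAP and is itself an SREBP target, rose from 63.7 ± 1.48 to 78.7 ± 3.34 CPM (log2 change 0.30, adjusted p = 5.85e-06 by edgeR), whereas INSIG2 had 23.3 ± 1.27 and 22.4 ± 2.49 CPM (adjusted p = 0.596 by edgeR). MLXIPL, the carbohydrate-responsive activator of lipogenesis, was low and fell from 2.08 ± 0.0567 to 0.989 ± 0.188 CPM (log2 change -1.08, adjusted p = 1.79e-04 by edgeR). Of the liver X receptors that induce SREBF1, NR1H3 fell by 0.17 on the log2 scale (adjusted p = 0.00719 by edgeR) and NR1H2 had 61.2 ± 2.05 and 61.2 ± 4.15 CPM. With the length and GC trend removed, 5 genes of this list rose. Of 22 cholesterol genes, the other SREBP arm, 11 rose and 1 fell (54.5% called), with the smallest adjusted p for ACAT2 (log2 change 0.80), HMGCS1 (0.49) and IDI1 (0.47), and a median of 0.16; 3 fell with that trend removed.

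**Figure D5:**
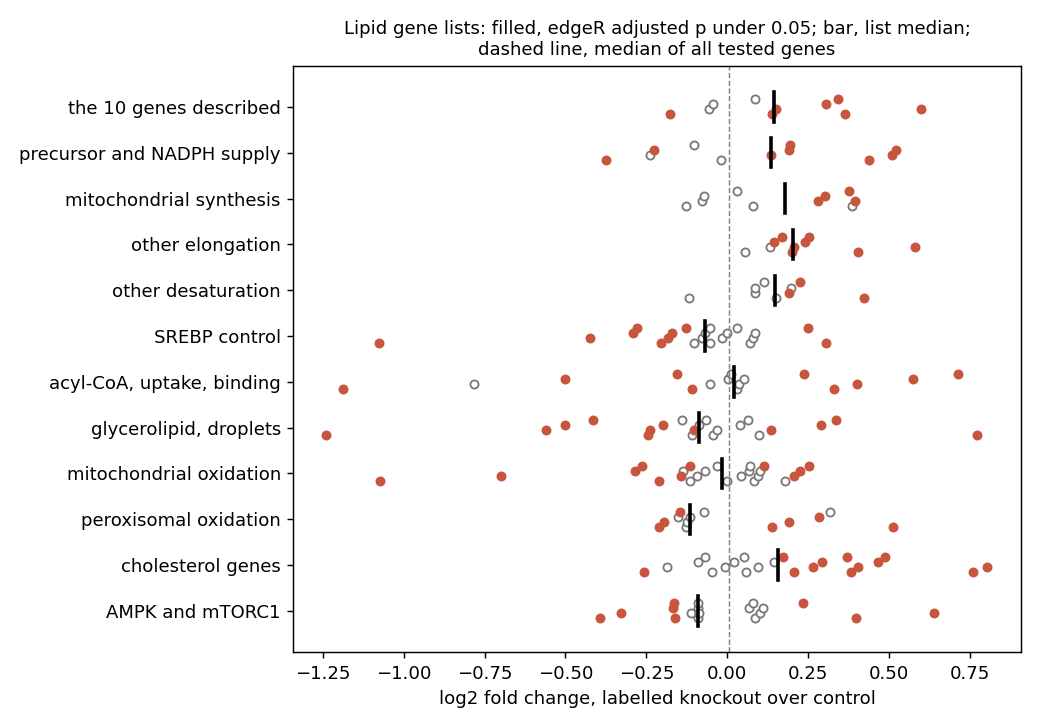
Log2 fold change (horizontal axis) of each tested gene of 12 lists of lipid genes, filled where the edgeR adjusted p was under 0.05, with the list median as a black bar and the median of all tested genes as a dashed line. The elongation list lies wholly to the right of 0, while the lists of SREBP control and glycerolipid genes have medians of -0.07 and -0.09.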

How the data were processed

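Total RNA of 6 libraries was sequenced, and the raw counts that the authors deposited, whole reads for each gene symbol, were the starting point. The submitters' processing notes name featureCounts 2.0.6, SAMtools 1.21, HISAT2 2.2.1 and FastQC 0.12.1, and the build GRCh38. The annotation and strand setting used for counting were not given in the sources used here. Groups and replicate numbers came from the sample titles.

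Differences were fitted by edgeR 4.0.16 under R 4.3.3 (TMM, filterByExpr with the group, robust quasi-likelihood test, two-sided), with Benjamini-Hochberg adjustment over 16910 genes and a threshold of 0.05; 4721 genes were left out by the filter. CPM used TMM-scaled library sizes. The SE is the log2 fold change divided by the square root of F. Alternatives used RLE and upper-quartile factors, other filters, DESeq2 1.42.0, limma-voom (limma 3.58.1), a replicate block, each library left out, stricter thresholds, and removal of a curve fitted to exon length and transcript GC (mgcv 1.9.3, gene-wise offsets, 95.3% of tested genes). A fit without the robust option, and ratios between members with that curve removed, were added after the data were seen. Positions and promoters are RefSeq's on GRCh38.p14, with a position for all 10 members and a promoter window for 9. On simulated counts for this comparison (16910 genes, 200 changed), 42% of 1.2-fold and 74% of 1.5-fold changes were recovered.

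The members and gene lists were chosen with earlier results of these data known. Named genes were SEPHS2, all members, the 3 called genes with the smallest adjusted p in each list, and a set of direct partners; some genes that this rule names are not reported here. The libraries of a group differed by more than sampling noise (chi-square per degree of freedom 4.79 to 7.84), so each was counted once. Figures were drawn with matplotlib 3.10.9.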

Additional observations from a re-analysis of the deposited data

How the results depend on the processing

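Of the 10 genes, 6 were called higher under each of the alternatives run, except 5 when control replicate 3 was left out, 7 after removal of the length and GC trend and 4 at a fold of at least 1.2. SCD, FADS1, FADS2 and FADS3 were called in all 17 alternatives, with log2 fold changes of 0.27 to 0.33, 0.32 to 0.47, 0.52 to 0.76 and 0.34 to 0.45. The count called lower, 1 (ACACA), ranged from 0 to 1 on leaving out each library, and was 0 without the length and GC trend and 0 at a fold of at least 1.2. FASN reversed to 0.16 with the trend removed. Over all genes, 4946 were called at a fold of at least 1.2, 2167 of them higher, against 7714 and 3749. A fold of at least 1.2 left 3 of the 6 precursor genes that rose, 1 of the 3 of desaturation, 4 of the 8 of SREBP control that fell and 4 of the 8 of glycerolipid synthesis. No scaling moved the median of all genes by 0.1.

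The groups share replicate numbers 1 to 3, but nothing says that a number marks a shared batch. Deviations from the group means correlated at 0.09, 0.02 and 0.13 for same-numbered libraries, over 14043 genes. For libraries of unlike number they ranged from -0.18 (control replicate 3 with knockout replicate 1) to 0.10 (control replicate 2 with knockout replicate 1). With the replicate block, 7877 genes were called, and 6 of the 10 were higher and 1 lower. Calls of small changes, such as those of ELOVL5 (1.11-fold) and SREBF1 (1.06-fold, called just with the length and GC trend removed), depended on the setting. ELOVL6 (1.10-fold) lost its call just at a fold of at least 1.2, which its change does not reach. Of 17 alternatives, ELOVL5 was called in 14, ELOVL6 in 16 and SREBF1 in 1. In the simulation, 42% of 1.2-fold changes were recovered. That share does not say how well these genes are resolved, since no 1.1-fold change was simulated and recovery was not split by level. Far fewer genes were changed in the simulation than were called here.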

Other observations

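Genes that use fatty acids moved in both directions. Of 21 tested genes of glycerolipid synthesis and lipid droplets, 4 rose and 8 fell (57.1% called, against 45.6% of all genes; median log2 fold change -0.09). LPIN2, a phosphatidate phosphatase, rose from 121 ± 4.13 to 206 ± 18.6 CPM (log2 change 0.77, adjusted p = 1.30e-11 by edgeR). MGLL, which releases the last fatty acid from monoacylglycerol, fell from 102 ± 4.52 to 69.1 ± 2.92 CPM (-0.56, adjusted p = 3.09e-10 by edgeR), and PLIN4, a lipid droplet coat protein, fell from 7.001 ± 0.352 to 2.94 ± 0.608 CPM (-1.24, adjusted p = 5.99e-08 by edgeR). Of 16 genes for uptake, activation and binding, 5 rose and 4 fell (56.2% called). FABP7, a fatty acid binding protein, rose from 8.74 ± 0.535 to 14.3 ± 0.885 CPM (0.71) and DBI, an acyl-CoA binding protein, by 0.40, while the transporter SLC27A1 fell from 41.4 ± 1.65 to 29.2 ± 2.31 CPM (-0.50). Leaving out replicate 2 or 3 of either group left 2 that fell.

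Of 24 genes of mitochondrial beta-oxidation, 4 rose and 7 fell (45.8% called, near the 45.6% of all genes). A fall of at least 1.2-fold was called for 3, against 16.4% of all genes. CPT1A, the gate of the carnitine shuttle that malonyl-CoA inhibits, fell from 98.6 ± 2.54 to 85.2 ± 5.12 CPM (-0.21, adjusted p = 5.82e-04 by edgeR). PPARGC1A, a coactivator of oxidative genes, fell from 2.21 ± 0.450 to 1.04 ± 0.235 CPM (-1.07, adjusted p = 3.11e-04 by edgeR), and ECHS1, an enoyl-CoA hydratase, rose by 0.21. Of 13 peroxisomal genes, 4 rose and 3 fell (53.8% called), with ACOX2 at 0.51, ABCD3 at 0.28 and SCP2 at -0.21; 1 fell with the length and GC trend removed. Of 18 genes of AMPK and mTORC1, which act on ACACA and SREBP-1, 3 rose and 5 fell (44.4% called, near the share of all genes), with PRKAG2 at 0.64 and CAMKK2 at -0.33. With the trend removed 8 rose, and without knockout replicate 2, 3 fell.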
